A study of Mus musculus with 6 samples.

Results

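The cytochrome P450 enzymes of families 1 to 4 were followed in mouse adrenal glands, as all probes of the array whose symbol names a gene of family 1, 2, 3 or 4. This gave 63 of the 28908 gene symbols on the array, read by 97 of its 45281 probes. The steroid-making P450 of families 11, 17 and 21 are not among them. Signals came from Illumina bead arrays of the adrenal gland. The mice were B6.FVB females, adult and virgin, with 3 samples from Gata6 knockout mice, labelled cKO for a conditional knockout in the adrenal gland, and 3 from normal mice, labelled Control. Neither the driver of the deletion nor whether each sample was a separate animal is stated in the labels. The p-values therefore cover the spread among these 6 samples alone, and that spread may be technical. No treatment, and no allele shared by both groups, is named in the labels.

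P450 enzymes of families 1 to 4 are haem proteins, mainly of the endoplasmic reticulum, that insert an oxygen atom into their substrate, with electrons passed on by the reductase Por. Enzymes of families 1 to 3 are best known for oxidizing drugs, solvents and pollutants in the liver, and several of family 2 also make epoxides of arachidonic acid. Family 4 enzymes hydroxylate the end of fatty acid chains and inactivate leukotrienes. The adrenal cortex is better known for the P450 of steroid synthesis, which lie outside these families.

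The probe for Gata6, the deleted gene, read 11.80, 11.66 and 11.71 log2 units on control replicates 1, 2 and 3 against 11.99, 12.06 and 12.31 on cKO replicates. The difference was 0.40 (SE 0.10; limma, adjusted p = 0.0545), higher where the label says deleted. In 3 of 17 alternatives this rise passed (limma, adjusted p from 0.0330 to 0.0472), one of which left out cKO replicate 1. The labels do not say which part of the gene was deleted or whether this probe lies in it, so it may not check the labels. Directions here compare arrays labelled cKO with arrays labelled Control. More probes were detected on each array labelled cKO (19308 to 19459) than on any control array (18314 to 19007), and 19210 were tested. All 8 adrenal cortex markers were tested, with 1 higher and summed levels of 16.17 to 16.43 log2 units in controls and 16.24 to 16.38 in cKO. Here and below, summed levels add signals on the linear scale, so the brightest gene of a list weighs most. All 7 medulla markers lay above 0, with a median difference of 0.46 and 1 past the threshold, Pnmt (0.97), among genes of which 6.98% passed, 4.34% higher and 2.64% lower. Their summed levels were 15.15 to 15.62 in controls and 15.82 to 16.15 in cKO, and their part in the P450 rises was not tested. In liver and kidney, organs rich in these enzymes, 7 of 11 and 7 of 12 markers were detected on 0 arrays, albumin (Alb) among them. The liver gene Ahsg and the kidney genes Slc12a3 and Slc12a1 were detected on all 6 arrays. Their means were 6.92, 9.23 and 6.27 log2 units in controls and 6.43, 9.01 and 6.16 in cKO. Of 2 liver and 4 kidney markers tested 0 passed by limma, and 1 had an unadjusted p under 0.05, the kidney gene Miox (0.96, adjusted p = 0.0789, limma). The number of arrays limits the precision of every value.

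Most of the P450 probes gave no signal above background. Of 97 probes, 74 were detected on 0 of the 6 arrays at a detection p under 0.05, that is 76.3%, against 51.3% of all probes on the array. For 43 of the 63 genes no probe was detected on any array. Both Cyp1a genes, the classical targets of the aryl hydrocarbon receptor, were among them, and so were all 4 Cyp4a genes, the fatty acid hydroxylases induced through the nuclear receptor Ppara. From the Cyp2a group of drug and nicotine oxidizers, Cyp2a4 and Cyp2a5 were undetected. In the phenobarbital-inducible Cyp2b group the same held for Cyp2b9, Cyp2b13, Cyp2b19 and Cyp2b23. Among 13 Cyp2c genes the undetected were Cyp2c29, Cyp2c37, Cyp2c38, Cyp2c39, Cyp2c40, Cyp2c50, Cyp2c54, Cyp2c55, Cyp2c65, Cyp2c67, Cyp2c68 and Cyp2c70. Cyp2d10, Cyp2d12, Cyp2d13, Cyp2d26 and Cyp2d34 were undetected too, as were Cyp2g1, the vitamin D hydroxylase Cyp2r1 and the Cyp2j genes Cyp2j5, Cyp2j6, Cyp2j11, Cyp2j12 and Cyp2j13. In family 3 these were Cyp3a11, Cyp3a13, Cyp3a16, Cyp3a25 and Cyp3a57, and in family 4, beside Cyp4a12a, Cyp4a12b, Cyp4a14 and Cyp4a31, Cyp4f39 and Cyp4x1. A further 3 probes, for Cyp2a12, Cyp2b10 and Cyp2d9, were detected on 1 or 2 arrays and were not tested. An undetected probe does not show that its gene is silent. For Cyp2d22 and Cyp2c44, 1 probe each was detected on 0 arrays, while another probe of the same gene was detected on all 6.

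**Figure D1:**
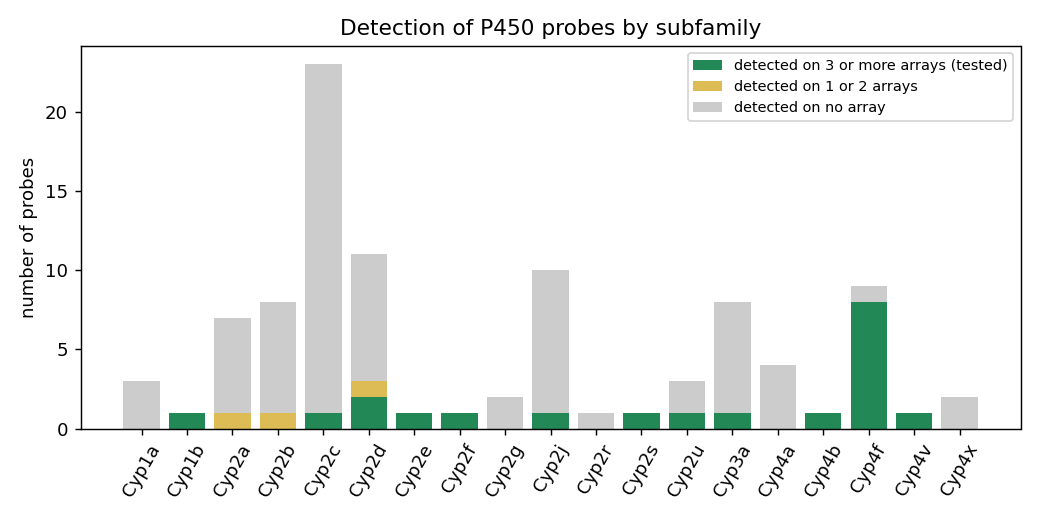
Number of probes (y axis) in each P450 subfamily (x axis), split into those detected on 3 or more of the 6 arrays and therefore tested, those detected on 1 or 2 arrays, and those detected on none. Of the 9 Cyp4f probes 8 were tested, whereas 22 of the 23 Cyp2c probes were detected on no array.

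The remaining 20 probes, for 17 genes, were detected on at least 3 arrays and could be tested, and 6 of them passed. Cyp2e1, Cyp2j9 and Cyp4f15 rose on the arrays labelled cKO, and Cyp2f2, Cyp2u1 and Cyp4f18 fell (limma, adjusted p under 0.05). Over all probes tested 6.49% passed, 3.92% higher and 2.57% lower. Of the 20 probes, 3 had passed the filter with 0 detected arrays in one of the groups (Cyp2u1, Cyp4f15 and a second Cyp4f18 probe), so a difference there was built in. Among the 15 probes detected on all 6 arrays 2 passed higher and 2 lower, where 6.86% of all such probes passed. The median difference over the 20 probes was -0.023, with 10 on each side of 0, and over all tested probes it was -0.023. The median size of a difference, regardless of sign, was 0.13 for the P450 probes and 0.18 for all tested probes. In whole glands, fewer cells of a type and less RNA per cell cannot be told apart.

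**Figure D2:**
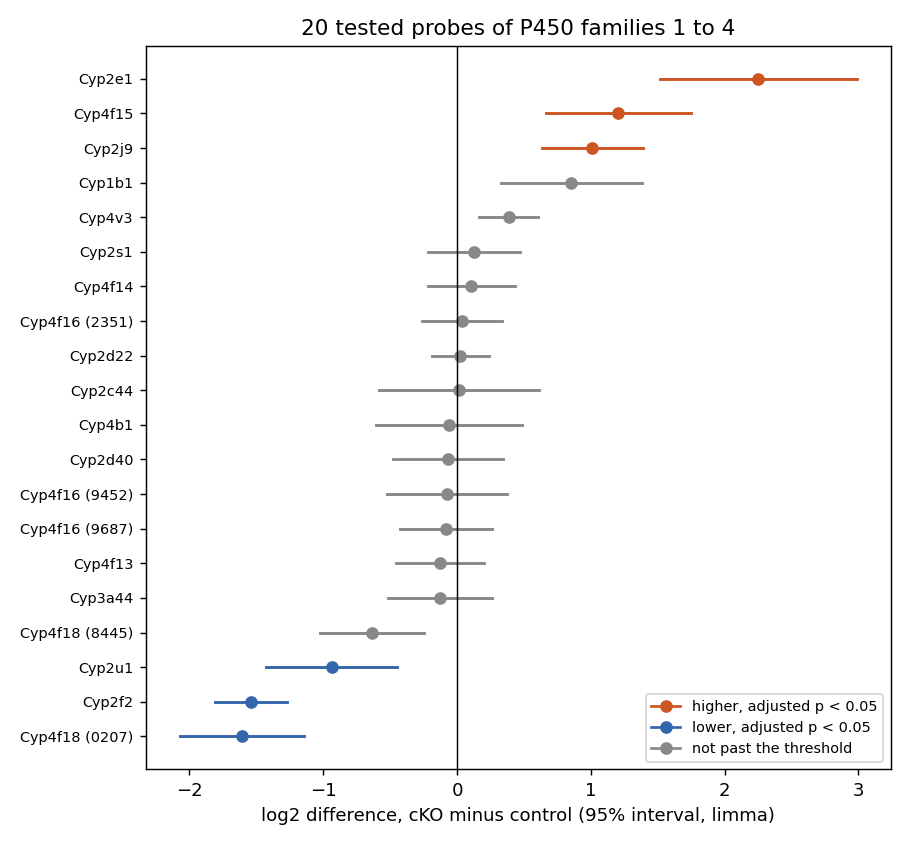
Difference between arrays labelled cKO and control arrays (x axis, log2 units) for each of the 20 tested P450 probes (y axis, with the last digits of the probe's identifier where a gene has several), with points for the estimate and lines for its 95% interval. Cyp2e1 lies farthest to the right at 2.25, and Cyp4f18 and Cyp2f2 farthest to the left at -1.61 and -1.54.

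Cyp2f2 and Cyp2e1, from the same family, had large differences of opposite sign and are both encoded on chromosome 7. Cyp2f2 activates naphthalene in the airway cells of the mouse lung, and Cyp2e1 oxidizes ethanol, acetone and small solvents and is found in fat as well as in liver. The 250 bases before the RefSeq start of each gene (GRCm38.p6, plus strand, chr7:27119705-27119954 for Cyp2f2 and chr7:140763569-140763818 for Cyp2e1) are shown because these genes had the largest rise of all 20 probes and the fall with the lowest adjusted p. Capitals in Cyp2f2 mark AAGGTCA, sought here as a half-site of NR5A receptors, among them the steroidogenic receptor Nr5a1. Capitals in Cyp2e1 mark, in order, ATTGG, which is the CCAAT box read on the opposite strand, then TGATAG, which is a site for GATA factors, then ATTGG again and lastly the core promoter motif TATAAA.
Cyp2f2: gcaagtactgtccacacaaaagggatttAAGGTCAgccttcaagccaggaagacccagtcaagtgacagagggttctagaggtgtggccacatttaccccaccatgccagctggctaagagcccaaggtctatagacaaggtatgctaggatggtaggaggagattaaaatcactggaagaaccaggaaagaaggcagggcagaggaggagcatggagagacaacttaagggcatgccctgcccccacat
Cyp2e1: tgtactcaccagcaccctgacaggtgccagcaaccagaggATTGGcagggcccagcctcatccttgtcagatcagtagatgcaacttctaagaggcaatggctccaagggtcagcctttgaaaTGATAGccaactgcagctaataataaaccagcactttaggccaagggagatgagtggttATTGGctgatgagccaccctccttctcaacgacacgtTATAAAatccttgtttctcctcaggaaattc
Each motif was sought on both strands. AAGGTCA, which lies 222 bases before the Cyp2f2 start, occurs in 4.08% of all 32851 such windows. A GATA site, sought as GATA preceded by A or T and followed by A or G, occurs in 26.5% of them, CCAAT in 33.8% and TATAAA in 12.4%. The GATA site of Cyp2e1 lies 127 bases and its TATA box 31 bases before the start, and the Cyp2f2 window holds none of these 3 motifs. A match describes letters only and is not evidence of binding.

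Cyp2f2 fell. The deposited signals were 21498, 26829 and 25295 on control replicates 1, 2 and 3 against 6668, 8286 and 7364 on cKO replicates. All 3 control signals were more than double any signal of the other group, and the brightest probe of any kind reached between 47778 and 61132 per array, so the Cyp2f2 signals were below the top of the scale. On the normalized log2 scale the group means were 14.48 ± 0.12 (SD, n = 3) and 12.94 ± 0.21. The difference was -1.54 (SE 0.12, 95% interval from -1.81 to -1.27; limma, adjusted p = 5.3e-04), that is 2.91-fold lower. It passed under all 17 alternatives, at -1.73 to -1.48.

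The neighbours of Cyp2f2 gave little signal. Measured P450 genes of its cluster on chromosome 7, taken as genes less than 500000 bases apart in the RefSeq table, numbered 11, of which only Cyp2f2 and Cyp2s1 were tested. Cyp2s1, an enzyme of skin and airway linings, read 6.88, 6.94 and 7.15 in controls against 7.27, 7.04 and 7.05 in cKO. These ranges overlap, and the difference was 0.13 (95% interval from -0.22 to 0.47; limma, adjusted p = 0.664).

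Marker genes of the X-zone, the inner cortical zone of virgin females, were also lower on the arrays labelled cKO. Of 3 X-zone markers listed, Pik3c2g fell by 5.60 (adjusted p = 0.00319, limma) and Akr1c18 fell by 4.24 (adjusted p = 0.0235, limma), against 2.64% of all genes tested, and Thrb was too dim to test. Pik3c2g was not above background on cKO replicate 2, and at the lowest detected signal there its fall is 5.55. Akr1c18 no longer passed without control replicate 1, 2 or 3 or cKO replicate 3, at adjusted p-values from 0.0556 to 0.0940 (limma), and with a robust variance (adjusted p = 0.138, limma). The summed level of Pik3c2g and Akr1c18 ranged from 14.36 to 14.75 log2 units on the control arrays and from 8.27 to 12.45 on the arrays labelled cKO. Both falls are given by array. Relative to the control mean, the X-zone markers averaged -2.92, -6.66 and -5.17 on cKO replicates 1, 2 and 3, and Cyp2f2 read -1.65, -1.29 and -1.68. With Pik3c2g at the lowest detected signal, cKO replicate 2 averaged -6.58. cKO replicate 2 had the lowest X-zone markers and the highest Cyp2f2 of the 3, but Cyp2f2 varied little among them (SD 0.21). The part of X-zone cells in the fall of Cyp2f2 was not tested.

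Cyp2e1 rose, with the largest difference of the 20 probes. Its deposited signals were 1450, 1881 and 1258 in controls against 5725, 11028 and 4954 in cKO, with no overlap. The normalized means were 10.56 ± 0.34 (SD, n = 3) and 12.82 ± 0.73. The difference was 2.25 (SE 0.32, 95% interval from 1.52 to 2.99; limma, adjusted p = 0.00602), that is 4.77-fold higher. Under the 17 alternatives it lay between 1.87 and 2.57 and passed in all of them, at adjusted p-values up to 0.0467 (limma).

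Most fat cell markers tested were also higher on the arrays labelled cKO. Of 9 markers listed 7 were tested, with a median difference of 1.07. Adipoq, the adiponectin gene (1.38, SE 0.19), the lipid droplet gene Cidec (1.49, SE 0.30) and the adipsin gene Cfd (1.07, SE 0.11) rose, where 4.34% of all genes tested did so. The call on Cidec was lost without control replicate 1 or 2, at adjusted p = 0.0650 and 0.0737, and with a robust variance, at 0.0743 (limma). Fabp4 and Retn were detected on 0 arrays. The summed level of the 7 ranged from 14.43 to 14.68 log2 units on the control arrays and from 15.49 to 15.92 on the arrays labelled cKO. Most of this sum came from Cfd, at 14.12 to 14.39 on the control arrays and 15.17 to 15.48 on the arrays labelled cKO. Relative to the control mean, the fat markers averaged 0.95, 1.59 and 0.29 on cKO replicates 1, 2 and 3, and Cyp2e1 read 2.04, 3.06 and 1.65. Ucp1, the brown fat marker, went the other way on replicate 3, at -2.87, and differed by -0.25 over the groups without passing. Without Ucp1, left out after its values were seen, the other 6 markers averaged 1.06, 1.55 and 0.82. The order of these 3 arrays was the same as that of Cyp2e1 with and without Ucp1, whereas among controls Cyp2e1 was lowest and the fat markers highest on replicate 3. That order was not particular to fat markers. Genes of fatty acid oxidation and Ppara targets, described below, averaged 0.43, 0.88 and 0.09 on cKO replicates 1, 2 and 3. Redox partners of the P450 enzymes did not share it, at 0.13, 0.15 and 0.23. The part of fat tissue in the rise of Cyp2e1 was not tested.

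**Figure D3:**
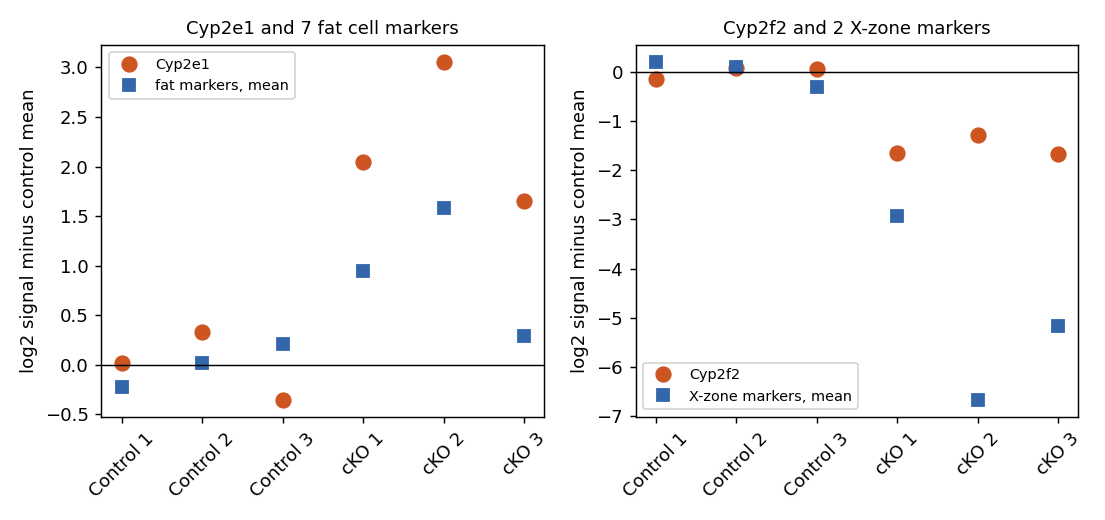
Log2 signal relative to the control mean (y axis) on each of the 6 arrays (x axis), for Cyp2e1 with the mean of 7 fat cell markers (left) and for Cyp2f2 with the mean of 2 X-zone markers (right). Cyp2e1 and the fat markers both peak on cKO replicate 2, at 3.06 and 1.59, while on that array Cyp2f2 is at -1.29 and the X-zone markers at -6.66.

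Of the arachidonic acid enzymes of family 2, Cyp2j9 rose. Cyp2u1 passed lower, but had entered the test only through the control arrays. Cyp2j9, which hydroxylates arachidonic acid in the mouse brain, read 5.49, 5.62 and 5.28 on control replicates and 6.63, 6.27 and 6.52 on cKO replicates, without overlap. It was higher by 1.01 (SE 0.17; limma, adjusted p = 0.0108). It passed in all 16 alternatives that kept the probe, and detection at a p under 0.01 on all 6 arrays left it out. Its control mean of 5.46 lay near the lowest detected signals of 5.11 to 5.25. The size of its rise depended on the background step, at 0.65 with an offset of 50 and 1.40 with the series matrix values. A second Cyp2j9 probe was detected on 0 arrays. Cyp2u1, a fatty acid hydroxylase of thymus and brain, read 6.23, 5.80 and 5.45 on the control arrays and was detected on 0 arrays labelled cKO, at 5.04, 4.66 and 4.96. By group means it was at least 1.63-fold lower, a bound that here and below leaves out the spread among arrays. The higher of its own signal and the lowest detected signal was taken on each dim array. Its measured means were 5.83 and 4.89, and it passed lower (limma, adjusted p = 0.0377). This call was lost whenever an array was left out other than control replicate 3, at adjusted p-values from 0.0553 to 0.128 (limma), and its other 2 probes were undetected. Cyp2c44, which makes arachidonic acid epoxides in the kidney and is now named Cyp2c23, read 6.56, 7.08 and 6.61 in controls against 6.52, 7.34 and 6.44 in cKO. These ranges overlap, and its difference was 0.015 (95% interval from -0.58 to 0.61).

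Cyp1b1, the family 1 enzyme that hydroxylates estradiol and polycyclic aromatic compounds, read 7.76, 7.49 and 7.27 in controls against 8.78, 7.90 and 8.40 in cKO. The groups did not overlap, but the difference of 0.85 (SE 0.23, 95% interval from 0.33 to 1.38) did not pass (limma, adjusted p = 0.0659). It passed under median scaling (0.94, adjusted p = 0.0319, limma), with the replicate number as a block (0.85, adjusted p = 0.0442, limma) and without cKO replicate 2 (1.09, adjusted p = 0.0323, limma). Markers of the capsule and mesenchyme moved in the same direction: 6 of the 8 tested rose, where 4.34% of all genes did, and their summed level was 13.71 to 13.90 log2 units on the control arrays and 14.79 to 15.20 on the arrays labelled cKO. Gli1 was detected on 0 arrays. Their part in the Cyp1b1 signal was not tested. In all, 9 of the 20 P450 probes had groups that did not overlap, and over all tested probes 28.1% did. For 3 of the 9, those of Cyp2u1, Cyp4f15 and the second Cyp4f18 probe, this separation was built in by the filter. Of the 15 P450 probes detected on all 6 arrays 6 did not overlap, and 28.5% of all such probes did not.

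**Figure D4:**
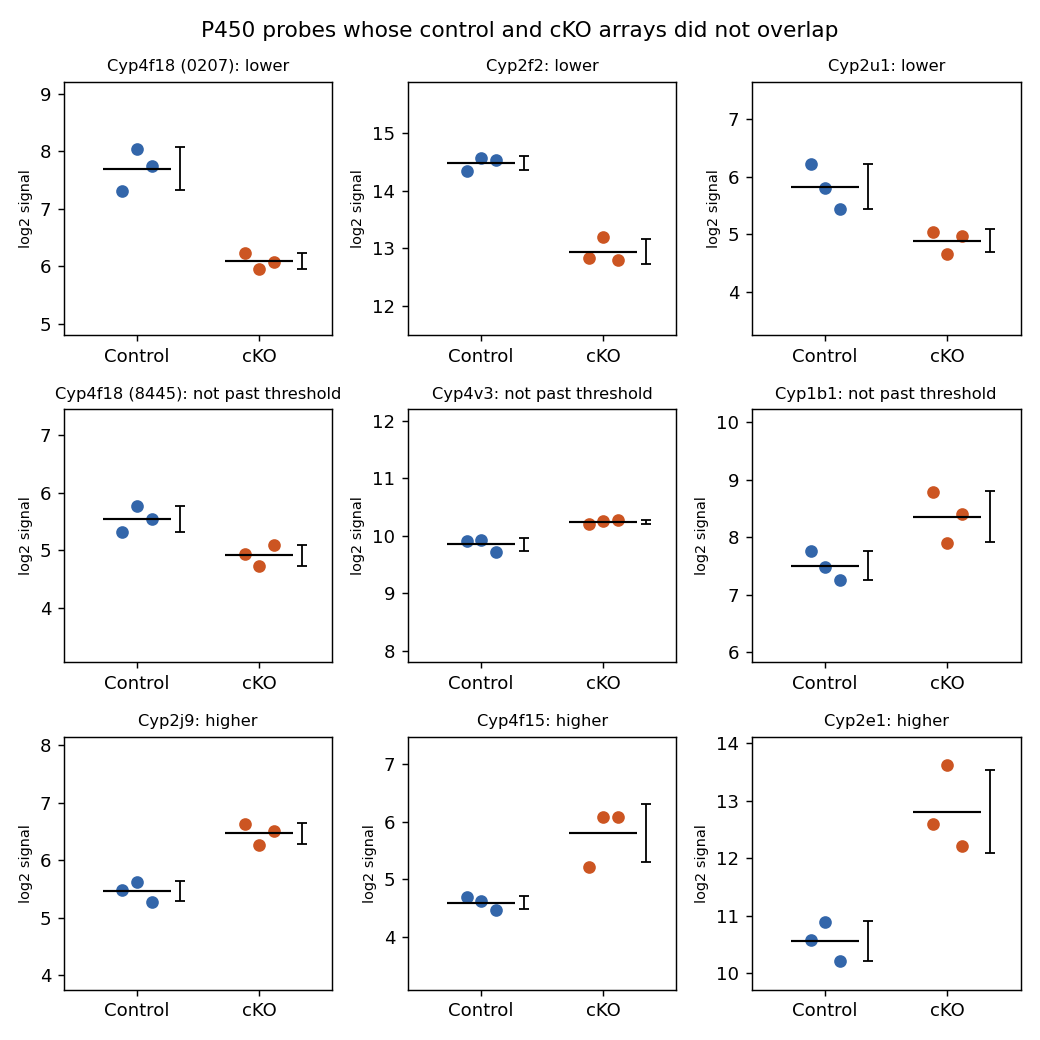
Log2 signal (y axis, each panel spanning 4.4 units) of the 9 P450 probes whose control and cKO arrays did not overlap, with a point for each array, horizontal lines for group means and bars for ± SD (n = 3). Cyp2e1 and Cyp2f2 show the gaps described above, and in Cyp4v3 the gap is narrow, with means of 9.85 and 10.24.

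In family 4, Cyp4f18 fell. Cyp4f15 passed higher, but had entered the test only through the arrays labelled cKO. Cyp4f18 inactivates the leukotriene that attracts neutrophils in mice, and Cyp4f15 belongs to the same subfamily of fatty acid hydroxylases. The 250 bases before the RefSeq start (GRCm38.p6) are given for both, as the members of the Cyp4f subfamily with a probe past the threshold: Cyp4f15 is on the plus strand at chr17:32685409-32685658 and Cyp4f18 on the minus strand at chr8:72009627-72009876. Capitals mark ATTGG, which is the CCAAT box read on the opposite strand, and in Cyp4f18 also TTATCT, which is a site for GATA factors read likewise.
Cyp4f15: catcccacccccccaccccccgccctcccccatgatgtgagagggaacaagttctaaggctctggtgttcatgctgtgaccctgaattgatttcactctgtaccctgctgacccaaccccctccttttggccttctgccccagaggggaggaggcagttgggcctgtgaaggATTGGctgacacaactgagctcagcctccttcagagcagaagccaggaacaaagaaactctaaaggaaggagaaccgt
Cyp4f18: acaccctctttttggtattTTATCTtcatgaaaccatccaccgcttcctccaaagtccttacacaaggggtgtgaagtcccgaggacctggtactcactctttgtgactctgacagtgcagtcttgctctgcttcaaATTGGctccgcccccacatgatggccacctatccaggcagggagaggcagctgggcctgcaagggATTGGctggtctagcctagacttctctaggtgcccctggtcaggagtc
The longest run shared by both windows is 10 bases and holds the marked ATTGG nearest to the start. At least 1 CCAAT box was present in 5 of 5 tested Cyp4f genes, that is also in Cyp4f13, Cyp4f14 and Cyp4f16, and in 7 of the 14 tested P450 genes for which a window was given. Of all windows 33.8% hold CCAAT. That share counts windows, whereas these 14 genes have 17 windows, and the Cyp4f genes are related. A GATA site was present in 6 of these 14 genes, and in 26.5% of all windows. The aryl hydrocarbon response element TNGCGTG (4.10% of all windows) and the PPAR element, which is AGGTCA repeated after 1 base (0.0335%), were found in 0 of them. The letters AGGTCA also lie within AAGGTCA, so these motifs can overlap.

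Cyp4f18 read 7.30, 8.03 and 7.74 in controls against 6.23, 5.96 and 6.06 in cKO, more than 1 log2 unit apart at the nearest. The difference was -1.61 (SE 0.20, 95% interval from -2.07 to -1.15; limma, adjusted p = 0.00392), that is 3.05-fold lower, and it passed under all 17 alternatives. Its second probe was detected on 3 control arrays, at 5.32, 5.78 and 5.55, and on 0 labelled cKO, at 4.93, 4.72 and 5.09. It was at least 1.35-fold lower without overlap, a separation built in by the filter. The measured difference of -0.63 did not pass (limma, adjusted p = 0.0649). Of 7 macrophage markers tested, Cd68 fell (-1.13, SE 0.16) and the others did not pass, with a median difference of -0.12, where 2.64% of all genes tested fell. Their summed level was 12.98 to 13.63 log2 units on the control arrays and 12.93 to 13.10 on the arrays labelled cKO, and Itgam was detected on 0 arrays. Their part in the fall of Cyp4f18 was not tested.

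Cyp4f15 was detected on 0 control arrays, at 4.68, 4.62 and 4.47, and on all 3 arrays labelled cKO, at 5.22, 6.08 and 6.08. It was at least 1.50-fold higher, with measured means of 4.59 and 5.79 (limma, adjusted p = 0.0222). The call was lost without control replicate 2 or 3 or cKO replicate 2 or 3, at adjusted p-values from 0.0619 to 0.0873 (limma), with a floor of 16 in place of further background correction (adjusted p = 0.0823, limma) and with the series matrix values (adjusted p = 0.0822, limma). Its neighbours in the chromosome 17 cluster did not pass. Cyp4f13 read 11.11, 10.84 and 11.27 on control replicates and 10.72, 11.17 and 10.96 on cKO replicates, a difference of -0.13 (95% interval from -0.46 to 0.21). Cyp4f14, which acts on leukotrienes and vitamin E in mice, read 9.91, 9.65 and 9.35 against 9.71, 9.78 and 9.75, a difference of 0.11 (95% interval from -0.22 to 0.43). In both genes the groups overlapped. Of 3 Cyp4f16 probes, the first read 7.74, 7.77 and 7.68 against 7.79, 7.64 and 7.88, a difference of 0.040. The other two read 6.91, 7.10 and 6.89 against 7.003, 6.73 and 6.91 (-0.084), and 5.25, 5.39 and 5.22 against 5.62, 4.89 and 5.11 (-0.076). None of the 3 probes separated the groups. Members of these subfamilies are alike in sequence, probe sequences were not used here, and a probe may read more than 1 of them.

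Cyp4v3, the mouse counterpart of a human fatty acid hydroxylase gene of the retina, read 9.91, 9.92 and 9.72 in controls against 10.20, 10.25 and 10.26 in cKO. The groups lay apart, and the difference of 0.39 (SE 0.10) fell just outside the threshold (limma, adjusted p = 0.0514). With a robust variance its adjusted p was 0.0474 and with array weights 0.0358 (limma). Cyp4b1, which activates plant toxins in the lung, read 7.89, 8.31 and 8.44 in controls against 7.72, 8.62 and 8.12 in cKO. These ranges overlap, and its difference was -0.060 (95% interval from -0.60 to 0.48).

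The tested Cyp2d and Cyp3a genes, of subfamilies that oxidize drugs in the liver, did not pass. Cyp2d22 read 10.25, 10.40 and 10.22 in controls against 10.31, 10.37 and 10.26 in cKO. Its arrays overlap throughout, and the 95% interval of the difference of 0.024 ran from -0.19 to 0.24, the narrowest of the 20 probes. Cyp2d40 differed by -0.068 (95% interval from -0.48 to 0.34) and Cyp3a44 by -0.13 (95% interval from -0.52 to 0.26). Both averaged under 5.5 log2 units in each group, near the lowest detected signals of 5.11 to 5.25, where changes are pulled toward 0.

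Partners and regulators of these enzymes were compared by gene, each through its brightest tested probe, where 6.98% of all genes tested passed. Among the redox partners 2 of 8 tested rose and 1 fell. The electron donors Cyb5a (1.35, SE 0.12) and Cyb5b (0.40, SE 0.08) rose, although a second Cyb5a probe read -0.18, and Cyb5r3, which reduces cytochrome b5, fell (-0.43, SE 0.08). The calls on Cyb5b and Cyb5r3 were lost without control replicate 2 or 3 or cKO replicate 3, and with no trend in the variance. That on Cyb5b was also lost without control replicate 1 or cKO replicate 2, under median scaling and with the replicate block. Por, which feeds all enzymes of these families, differed by -0.31 (SE 0.18; limma, adjusted p = 0.358). Of 10 tested sensors of foreign compounds and lipids, 0 passed by limma and 0 had an unadjusted p under 0.05. Ahr, Nr1i2 and Ppara, receptors that induce the Cyp1, Cyp3a and Cyp4a genes, had 1 probe each, detected on 0 arrays. Nr1i3, which induces Cyp2b genes, differed by 0.094 (SE 0.21), with -0.059 without control replicate 2.

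Among other oxidation and conjugation enzymes 2 of 17 tested rose and 1 fell. The carboxylesterase gene Ces1f (1.64, SE 0.34) and the phenol sulfotransferase gene Sult1a1 (0.70, SE 0.10) rose, and the quinone reductase gene Nqo2 (-0.61, SE 0.10) fell. The call on Ces1f was lost without control replicate 1, 2 or 3 and that on Nqo2 without control replicate 2. Among genes of fatty acid oxidation and Ppara targets, 2 of 22 tested rose and 0 fell, with a median of 0.21. Of the 22, 6 had an unadjusted p under 0.05 by limma. The thioesterase gene Acot1 rose (2.35, SE 0.29) and passed under all 17 alternatives. Of 13 eicosanoid enzymes only the prostaglandin E synthase gene Ptges rose (0.82, SE 0.15), a call lost without control replicate 2 or cKO replicate 3, and a second Ptges probe read 0.18.

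P450 of other families gave 1 rise and 1 fall among 10 tested genes, with a median of -0.0022. Cyp27a1, a sterol hydroxylase of mitochondria, rose (0.75, SE 0.13), a call lost without cKO replicate 3 (adjusted p = 0.0513, limma), and the cholesterol synthesis gene Cyp51 fell (-1.85, SE 0.25). Of the steroid-making members, Cyp11b1 differed by 0.0063 and Cyp21a1 by 0.031, without passing. The aldosterone synthase gene Cyp11b2 differed by -0.95 (95% interval from -1.75 to -0.15; limma, adjusted p = 0.152) and by -0.98 on a second probe. The 4 probes of Cyp11a1, which makes pregnenolone, did not give 1 answer: the brightest read -0.035, and of the others one passed at 1.11 (limma, adjusted p = 0.00797) and the rest read 0.72 and 0.14 without passing. Cyp17a1 was detected on 0 arrays.

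**Figure D5:**
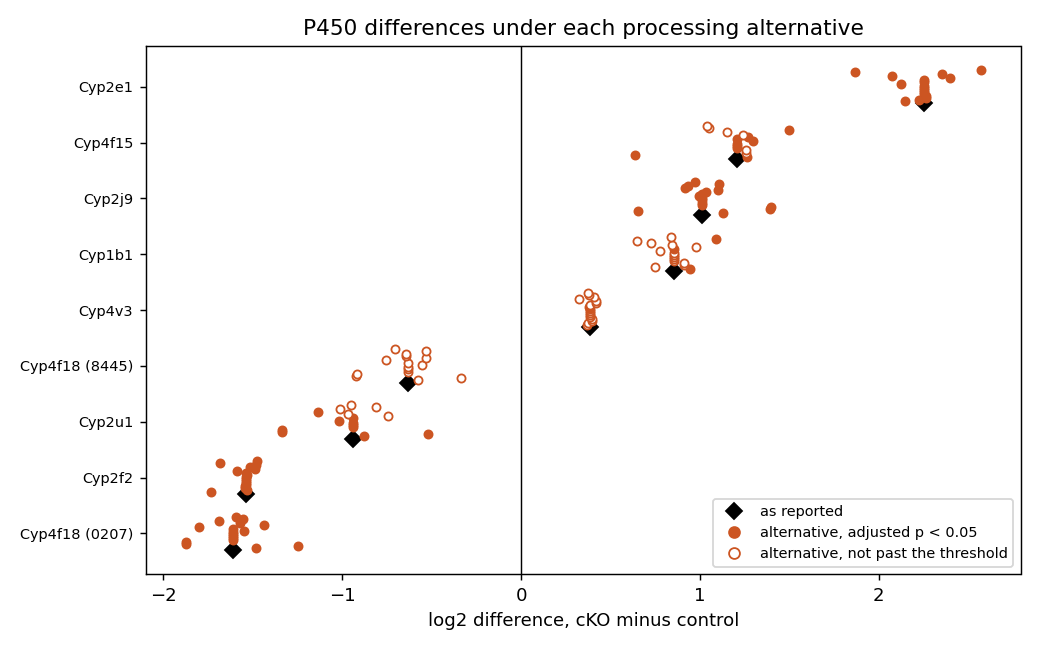
Difference between arrays labelled cKO and control arrays (x axis, log2 units) for the 9 P450 probes whose groups did not overlap (y axis), as reported (diamonds) and under each processing alternative (circles, filled where the adjusted p was under 0.05). Circles of Cyp2e1, Cyp2f2, Cyp2j9 and the first Cyp4f18 probe are all filled, those of Cyp2u1 and Cyp4f15 only in part.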

How the data were processed

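Per the file headers, the authors deposited linear intensity values for each probe of 6 arrays, before any normalization. Of an array's values, 33.1% to 33.4% lay below 0 in controls and 30.7% to 31.4% in cKO. A detection p-value was deposited beside each signal, per the file headers. Per the labels' protocols, RNA came from a Qiagen RNeasy kit and was labelled with an Ambion MessageAmp kit. Scanner software is not stated. The deposited series matrix holds normalized intensity values, method not stated, and served as an alternative.

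Signals were background-corrected by normexp (limma 3.58.1, R 4.3.3; spread from the detection p-values, offset 16), log2 transformed and quantile normalized. Probes with a detection p under 0.05 on at least 3 of 6 arrays were tested with limma, empirical Bayes with trend, no covariates, two-sided, with Benjamini-Hochberg adjustment over 19210 probes and a threshold of 0.05. The offset pulls changes of dim probes toward 0. The test was tried on simulated data. Symbols are those of the file, brought up to date with a RefSeq table of assembly GRCm38.p6 (all 97 P450 probes matched, 95 by current symbol). Each P450 gene that passed, and every tested member of its subfamily, was described. Up to 3 genes per companion list were named among those that passed, largest change first, apart from some that are not reported here, beside Por, Ahr, Nr1i2, Nr1i3, Ppara and Gata6. Further tested members and marker genes were chosen after seeing their values. The members and lists were chosen with earlier results of these data known. Promoter sequences are RefSeq's; 14 of the 17 tested genes had one. Replicate numbers are shared by the groups, but same-numbered arrays did not deviate together (r from -0.015 to 0.044).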

Additional observations from a re-analysis of the deposited data

How the results depend on the processing

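The P450 calls, their median and the named genes were recomputed under up to 17 alternatives, 1 of them, detection at a p under 0.05 on all 6 arrays, chosen after seeing the data. Stricter detection left out Cyp2j9, Cyp3a44 and Nr1i3 in 1 of them and Cyp2u1, Cyp4f15, Cyp2d40, Pik3c2g, the third Cyp4f16 and the second Cyp4f18 probe in 2, and counts of groups that do not overlap were not recomputed. Among P450 probes, 3 higher and 3 lower calls became 4 and 3 under median scaling, a robust variance, array weights and the replicate block (replicate number as a block, which added Cyp1b1 in an analysis where the numbers are not known to pair the arrays). They became 2 and 3 with the series matrix or with a floor of 16. Requiring detection at a p under 0.01 on all 6 arrays left 13 probes, of which 1 was higher and 2 lower, since Cyp2j9, Cyp4f15 and Cyp2u1 were no longer tested. Leaving out 1 array gave 2 to 3 higher and 2 to 3 lower calls, and over all probes 331 to 778 higher and 192 to 487 lower, against 753 and 494 with all 6 arrays. The median difference stayed between -0.049 and 0.055. Cyp2e1, Cyp2f2 and the first Cyp4f18 probe passed under all 17. Signs turned only for differences of at most 0.11 in size. Cyp4b1 read 0.016 under median scaling and 0.034 with array weights. The second Cyp4f16 probe read 0.043 under median scaling and Cyp2c44 -0.0072 with array weights. Leaving out 1 array moved Cyp2c44 between -0.28 and 0.18, Cyp2d22 between -0.011 and 0.078, and Cyp2d40 between -0.24 and 0.051. Cyp4b1 moved between -0.30 and 0.16, Cyp4f14 between -0.038 and 0.24, and Nr1i3 between -0.059 and 0.32. The first Cyp4f16 probe moved between -0.014 and 0.11, the second between -0.14 and -0.0080 and the third between -0.28 and 0.080. The causes were not tested. Signal over background limits Cyp2j9, Cyp2u1, Cyp4f15, Cyp2d40 and Cyp3a44. Over the alternatives the companion lists gave 1 to 3 rises and 0 to 1 falls for redox partners, and 1 to 3 and 0 to 1 for conjugation enzymes. Rises numbered 2 to 4 for fatty acid oxidation and Ppara targets, 0 to 1 for eicosanoid enzymes and 0 to 2 for P450 of other families.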
